A study of Ovis aries with 6 samples.

Results

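Lymphatic endothelial nuclei, the cells that line lymphatic vessels, made up 590 of 40419 nuclei kept from the rumen epithelium of 6 sheep. They were chosen by detected genes alone. Each nucleus had 500 genes or more, no more than 10% of its UMIs from mitochondria, and at least 3 of the 5 markers PROX1, FLT4, MMRN1, RELN and LYVE1, with PROX1 or MMRN1 among them. It could hold at most 1 of the blood vessel markers PLVAP, VWF and EMCN, at most 1 of the keratinocyte markers TP63, DSG1, DSC2 and COL17A1, and no UMI of the leukocyte gene PTPRC. The levels of these genes in the chosen nuclei are therefore a description and not a finding. The same holds for every comparison with other classes of nuclei, which is given without a test.

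The study concerns grazing sheep and supplementary feeding. Nuclear RNA of the ventral-sac rumen epithelium came from 6 male lambs sampled after slaughter. They formed the groups MGNS and MGHS, with 3 lambs in each, and the labels spell out neither name nor an age. The sheep were drawn at random within each group and each gave 1 droplet library, so the animal is the replicate. No other treatment, allele or agent is named for either group. A positive difference means a higher value in MGHS than in MGNS.

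The lymphatic system drains fluid, lipid and immune cells from tissue. PROX1 is the transcription factor that sets the lymphatic identity of an endothelial cell, and FLT4 encodes VEGFR-3, the receptor for the growth factor VEGF-C. Fine lymphatic capillaries carry LYVE1, a receptor for hyaluronan, and attract dendritic cells and T cells with the chemokine CCL21, whereas larger collecting vessels hold valves that keep lymph moving one way.

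The MGNS animals 1, 2 and 3 gave 60, 63 and 118 lymphatic nuclei, and MGHS 1, 2 and 3 gave 60, 143 and 146. Their summed UMIs per animal ran from 243872 to 579252. Of the 590 nuclei, 160 held 3 markers, 273 held 4 and 157 held 5. Just outside the rule, 40 nuclei met every other condition with 2 markers, and no nucleus had 3 or more markers without PROX1 or MMRN1. The PTPRC condition alone refused 160 nuclei, the keratinocyte condition alone refused 86 and the blood vessel condition alone refused 25. The PTPRC refusals were uneven, at 31, 38 and 42 nuclei for MGNS 1 to 3 against 9, 20 and 20 for MGHS 1 to 3. No barcode sequence was shared between lymphatic nuclei of different libraries.

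Among the rule's own markers, RELN was detected in 98.3% of lymphatic nuclei, MMRN1 in 96.9%, PROX1 in 96.4%, FLT4 in 59.0% and LYVE1 in 48.8%. In keratinocyte nuclei, which should lack them, the same genes were detected in 0.175% to 2.08% of nuclei. The median depth per animal was 2524 to 5157 UMIs in lymphatic and 8108 to 10200 UMIs in keratinocyte nuclei. After every nucleus was thinned to 1000 UMIs, the shares in lymphatic nuclei were 90.7% for RELN, 80.5% for MMRN1, 76.4% for PROX1, 23.8% for FLT4 and 25.2% for LYVE1. MMRN1 was not confined to lymphatic nuclei. It was detected in 31.8% of blood endothelial nuclei, and in 10.7% of them after thinning. The other markers of the rule were in 0.66% to 2.14% of blood endothelial nuclei before thinning. The 3 blood vessel markers behaved unequally. EMCN, a sialomucin of the endothelial surface, was present in 73.9% of lymphatic nuclei, against 88.8% of the blood endothelial nuclei chosen by a mirror rule and 1.50% of keratinocyte nuclei. VWF was present in 0.847% and PLVAP in 0.169% of lymphatic nuclei. The rule allows 1 of these 3 genes, and without that condition EMCN was in 461 of 615 nuclei, VWF in 22 and PLVAP in 16.

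The label was checked on genes outside the rule. Levels are in CPM, the UMIs of a gene in all lymphatic nuclei of an animal per 1000000 UMIs of those nuclei. CCL21 stood at 6804, 4506 and 6731 CPM in MGNS 1 to 3 and 10288, 7725 and 10210 CPM in MGHS 1 to 3, and at 22.1 CPM in blood endothelial nuclei, the next highest class. It was detected in 97.1% of lymphatic nuclei and, after thinning, in 91.7%, against 9.02% and 1.01% of keratinocyte nuclei. PDPN, the membrane mucin podoplanin of lymphatic endothelium, averaged 335 CPM in lymphatic and 9.98 CPM in blood endothelial nuclei, although fibroblast nuclei held 168 CPM. MAF, a transcription factor active in lymphatic vessels, averaged 642 CPM against 15.6 CPM in blood endothelial nuclei. TFPI, an inhibitor of the tissue factor pathway of clotting, averaged 414 CPM against 43.8 CPM. Neither was confined to lymphatic nuclei. MAF was detected in 76.3% of lymphatic, 41.4% of leukocyte and 23.7% of fibroblast nuclei. TFPI was detected in 63.56% of lymphatic and 33.55% of fibroblast nuclei. Not every textbook marker was present, since TFF3 had no UMI in 590 nuclei, which allows a share of nuclei with a TFF3 UMI of up to 0.508% and sets no limit on nuclei that express it, and STAB2 was found in 6 nuclei, 5 of them from MGNS 2.

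**Figure D1:**
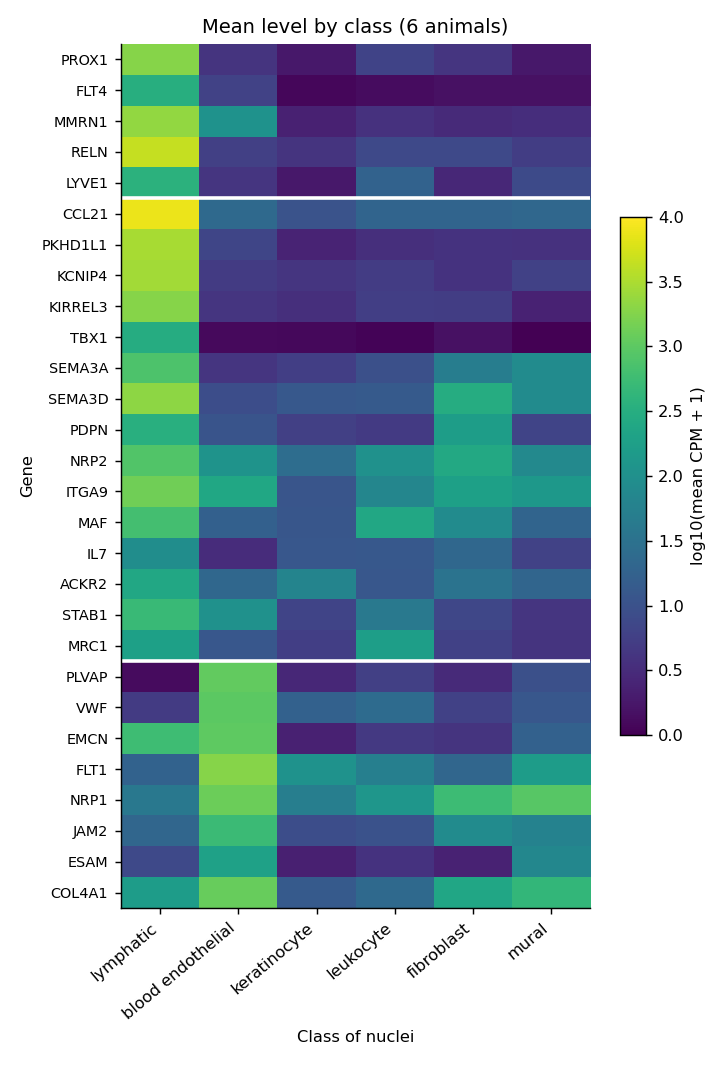
Mean level of each gene in 6 classes of nuclei, over 6 animals, as the log10 of mean CPM with 1 added. The upper block holds the rule's 5 markers, the middle block lymphatic genes outside the rule and the lower block blood endothelial genes, of which EMCN, at 562 CPM, and COL4A1, at 161 CPM, are the highest in lymphatic nuclei.

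The 25 genes outside the rule with the highest ratio to the next class were 14.1 to 462 times that class, with 1 CPM added to both. KCNIP4, which encodes a potassium channel interacting protein, led at 2751 CPM in lymphatic and 4.96 CPM in mural nuclei. It was followed by PKHD1L1, a large membrane protein related to fibrocystin, at 2999 CPM, and by the cell adhesion gene KIRREL3 at 1872 CPM. TBX1, a transcription factor needed for the growth of lymphatic vessels, averaged 297 CPM and at most 0.497 CPM in any other class. The remaining genes were CCL21, ANKRD55, TMEM200A, ST6GALNAC5, COL23A1, NKAIN3, SCN3B, MYO7A, KLHL3, ELOVL7, TAFA5, KBTBD11, TNFAIP8L3, CA10, TC2N, KHDRBS3, CDH20 and 4 genes known only by LOC symbols. Several of them are better known from nerve cells, among them KCNIP4, NKAIN3, SCN3B, TAFA5 and CA10.

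KIRREL3 was set apart by a single animal. Its level was 1741, 3259 and 185 CPM in MGNS 1 to 3 and 1886, 2113 and 2048 CPM in MGHS 1 to 3. MGNS 3 thus lay far below the other 5 animals, while its PKHD1L1 level of 4155 CPM was the highest of the 6.

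The growth factor axis was laid out across classes by role. Among the receptors, FLT4 averaged 318 CPM in lymphatic and 5.21 CPM in blood endothelial nuclei. KDR, the VEGFR-2 receptor, averaged 528 and 800 CPM in the same order, and FLT1, the VEGFR-1 receptor, 16.9 and 1868 CPM. The neuropilin co-receptors divided along the same line, with NRP2, which binds VEGF-C, at 819 CPM in lymphatic and 114 CPM in blood endothelial nuclei, and NRP1 at 38.9 and 1271 CPM. In all 6 animals NRP2 was higher and NRP1 and FLT1 were lower in lymphatic than in blood endothelial nuclei. The ligand VEGFC was low in the lymphatic nuclei themselves, at 12.8 CPM, and stood at 342 CPM in blood endothelial and 159 CPM in fibroblast nuclei. CCBE1 and ADAMTS3, which together activate VEGF-C, were highest in fibroblast nuclei, at 827 and 145 CPM, against 40.3 and 11.7 CPM in lymphatic nuclei. Of the 5 receptors and co-receptors, FLT4, a gene of the rule, and NRP2 thus had the higher mean in lymphatic nuclei, and KDR, FLT1 and NRP1 in blood endothelial nuclei.

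SEMA3A, a repellent guidance cue that also acts in lymphatic valves, averaged 764 CPM against 3.13 CPM in blood endothelial nuclei. SEMA3D, of the same family, averaged 2119 and 7.81 CPM. ITGA9, the integrin subunit required for valve leaflets, averaged 1345 and 237 CPM and was higher in lymphatic nuclei in 6 of 6 animals. Of the valve factors, FOXC2 was found in 6 nuclei, and GATA2 averaged 13.7 CPM in lymphatic and 27.5 CPM in blood endothelial nuclei.

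Junction genes separated the 2 endothelia in part. CLDN5, the main endothelial claudin, was close in both, at 194 CPM in lymphatic and 166 CPM in blood endothelial nuclei, and was higher in lymphatic nuclei in 3 of 6 animals. CDH5, the endothelial cadherin, averaged 96.9 and 183 CPM, and PECAM1 803 and 1916 CPM. Among the junctional adhesion molecules, ESAM averaged 6.67 against 195 CPM, JAM2 20.2 against 530 CPM and JAM3 0.577 against 62.0 CPM. Each of these 3 genes was lower in lymphatic nuclei in 6 of 6 animals. F11R, which encodes the related JAM-A, was closer in both classes, at 96.3 and 133 CPM.

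Genes of immune traffic and scavenging gave a profile of their own. IL7, the growth factor that keeps T cells alive, averaged 90.9 CPM in lymphatic nuclei, 2.19 CPM in blood endothelial and 20.7 CPM in fibroblast nuclei. ACKR2, a decoy receptor that removes inflammatory chemokines, averaged 253 and 20.9 CPM in lymphatic and blood endothelial nuclei. It was also detected in 30.5% of keratinocyte nuclei, against 47.8% of lymphatic nuclei, and after thinning in 5.74% against 22.6%. The scavenger receptor STAB1 averaged 521 CPM in lymphatic and 105 CPM in blood endothelial nuclei. MRC1, the mannose receptor, averaged 189 and 11.4 CPM in the same order, with 171 CPM in leukocyte nuclei. Adhesion genes through which leukocytes leave the blood were on the other side, since MADCAM1 averaged 0.683 CPM in lymphatic and 68.1 CPM in blood endothelial nuclei and CX3CL1 2.84 and 113 CPM. ACKR4, a scavenger of CCL21 known from some lymphatic vessels, averaged 5.94 CPM and was highest in fibroblast nuclei at 194 CPM.

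The vessel wall genes also differed. LAMA4, a laminin chain of endothelial basement membrane, averaged 1556 CPM in lymphatic and 480 CPM in blood endothelial nuclei, whereas the basement membrane collagens COL4A1 and COL15A1 averaged 161 and 6.69 CPM against 1172 and 266 CPM. Of the angiopoietin system, the ligand ANGPT2 averaged 223 and 128 CPM and its receptor TEK 136 and 309 CPM. BMP6 averaged 608 and 93.0 CPM and was higher in lymphatic nuclei in 6 of 6 animals. Cell cycle genes were close to absent, with MKI67 in 6, TOP2A in 17 and CDK1 in 3 of 590 nuclei.

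The share of lymphatic nuclei did not separate the groups. It was 1.28%, 0.797% and 1.65% of kept nuclei in MGNS 1 to 3, against 1.06%, 2.25% and 1.68% for MGHS 1 to 3, and the ranges overlapped. The means were 1.25% ± 0.430 and 1.66% ± 0.597 (SD, n = 3 each), with a two-sided exact permutation p of 0.4, and 3 animals against 3 cannot go below 0.1. Without the PTPRC condition the means were 1.82% and 1.90%, with an exact permutation p of 1, so the difference of 0.418 percentage points became 0.0745. Without MGHS 1 the difference was 0.721 percentage points and the groups no longer overlapped (exact permutation p = 0.2). Without MGNS 2 it was 0.194 and without MGHS 2 0.124. With 1 animal left out this test cannot decide, since even groups without overlap gave a p of 0.2. The number of lymphatic nuclei per blood endothelial nucleus averaged 0.536 ± 0.163 over MGNS and 0.459 ± 0.121 over MGHS animals (exact permutation p = 0.5), and the median depth of a lymphatic nucleus was 4068 ± 1374 and 3514 ± 338 UMIs (exact permutation p = 0.6). The depth difference of -554 UMIs became -1326 without MGNS 3, with groups that no longer overlapped (exact permutation p = 0.2). It was -326 without MGNS 1 and -9.83 without MGNS 2, and here too the test could not have passed.

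**Figure D2:**
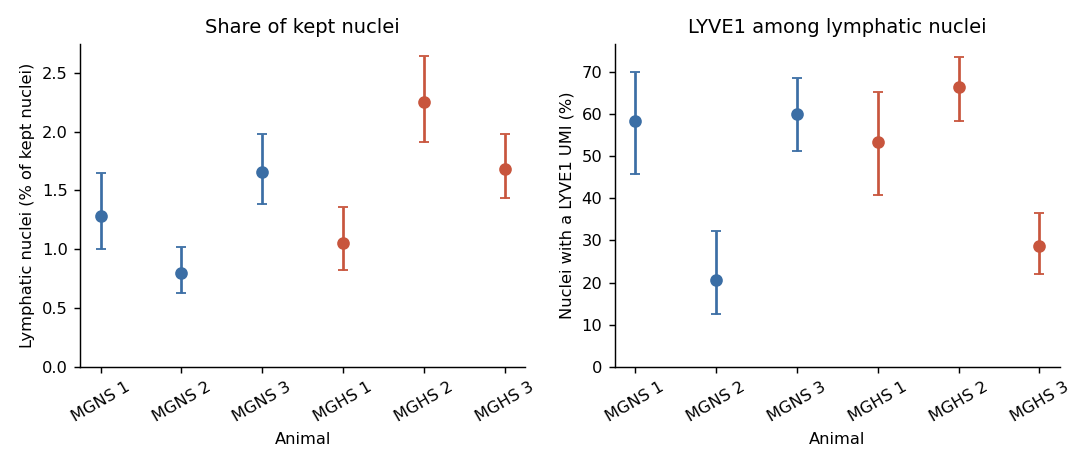
Left, lymphatic nuclei as a percentage of kept nuclei, and right, lymphatic nuclei with a LYVE1 UMI as a percentage, for 6 animals (MGNS blue, MGHS red). Bars are 95% Wilson intervals and cover counting error only. MGHS 2 has the highest value in both panels and MGNS 2 the lowest.

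LYVE1 detection varied from animal to animal within both groups. It was 58.3%, 20.6% and 60.2% of lymphatic nuclei in MGNS 1 to 3, against 53.3%, 66.4% and 28.8% for MGHS 1 to 3. MGNS 2 and MGHS 3 were the lowest, with 95% Wilson intervals of 12.5% to 32.2% and 22.0% to 36.6%, which cover counting error only. At 1000 UMIs per nucleus the order was kept at the low end, with 1.64% in MGNS 2, 11.8% in MGHS 3 and 30.5% to 39.7% in the others. MGNS 2 had the deepest lymphatic nuclei of all animals, at a median of 5157 UMIs. LYVE1 is 1 of the 5 markers of the rule, and a nucleus without it needed 3 of the other 4.

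Nuclei with and without a LYVE1 UMI were then compared inside each animal, among those with at least 3 of the other 4 markers and with the animal as a block. AKAP12, a scaffold protein that anchors protein kinase A, was the 1 gene of 3344 that passed, which is 0.0299%. In LYVE1-positive nuclei it stood at 358, 101 and 256 CPM in MGNS 1 to 3 and 170, 330 and 122 CPM in MGHS 1 to 3. In LYVE1-negative nuclei the values were 153, 17.1 and 71.4 CPM and 79.3, 114 and 40.3 CPM in the same order. The positive nuclei were higher in 6 of 6 animals, by 1.54 ± 0.22 (SE) on the log2 scale, with an adjusted p of 0.00885 in edgeR's quasi-likelihood test with Benjamini-Hochberg adjustment. The call was lost without MGNS 1, MGNS 3 or MGHS 2, with edgeR adjusted p-values of 0.0621, 0.0577 and 0.0739, and over all 10 alternatives the adjusted p ran from 7.59e-06 to 0.0739. Over whole animals the level of AKAP12 in lymphatic nuclei was 271, 42.1 and 174 CPM in MGNS 1 to 3 and 123, 264 and 63.9 CPM in MGHS 1 to 3. The level of LYVE1 in the same order was 549, 75.1 and 496 CPM and 328, 618 and 192 CPM. Since AKAP12 was named for its difference between LYVE1-positive and LYVE1-negative nuclei, these levels are a description and add no support.

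The other genes named for the smallest p in this comparison did not pass, and the same direction in 6 of 6 animals was a condition for naming them. REEP1, a protein that shapes the endoplasmic reticulum, averaged 238 CPM in LYVE1-positive and 85.0 CPM in LYVE1-negative nuclei and was higher in 6 of 6 animals (edgeR adjusted p = 0.101). CYYR1 averaged 133 and 280 CPM, the transcription factor FOXO3 198 and 435 CPM, and the growth factor gene PDGFC 207 and 359 CPM, each lower in 6 of 6 positive sets. Blood endothelial nuclei held CYYR1 at 943 to 1324 CPM, above its 148 to 315 CPM in lymphatic nuclei. SLC26A3, an anion exchanger that averaged 1153 CPM in keratinocyte nuclei, was at 80.7 and 291 CPM, and MGNS 3 alone had 1035 CPM in its LYVE1-negative nuclei. Among all genes tested, 2.33% were higher and 2.12% lower in 6 of 6 animals, and 208 had an unadjusted p under 0.05, or 6.22%. Positive nuclei were the deeper ones in MGNS 2, at 7872 against 4764 UMIs, and in MGHS 3, at 4486 against 3218 UMIs, but not in MGHS 1, at 3651 against 4491 UMIs.

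**Figure D3:**
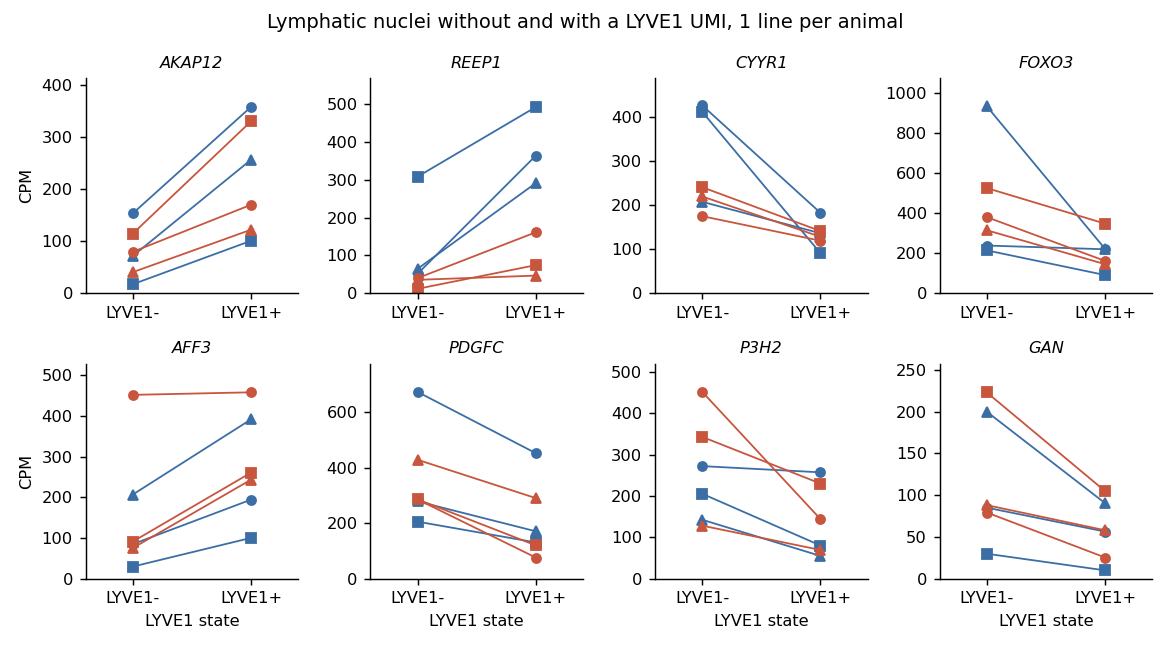
CPM in LYVE1-negative and LYVE1-positive lymphatic nuclei for 8 genes, 1 line per animal (MGNS blue, MGHS red, with circle, square and triangle for replicates 1, 2 and 3). These genes have symbols and the smallest p among genes with the same direction in all 6 animals. That direction was a condition for choosing them and is no finding. AKAP12 is higher in the positive nuclei of all 6 animals and CYYR1 lower in all 6, and of these 8 genes AKAP12 alone passed the test.

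Between the groups, 1 of 5770 genes tested in lymphatic nuclei passed at an adjusted p of 0.05, which is 0.0173%. It was LOC101111178, a protein-coding gene without a symbol that lies on chromosome 3 beside the keratin genes KRT5, KRT6A, KRT71 and KRT74 in RefSeq's gene annotation of assembly ARS-UI_Ramb_v3.0. The rule for named genes leaves out LOC symbols, and it is named here because it was the only call. Its level was 7.23, 3.0 and 2.85 CPM in MGNS 1 to 3 and 61.5, 88.5 and 116 CPM in MGHS 1 to 3. The log2 fold change was 4.37 ± 0.50 (SE), with an adjusted p of 0.0204 in edgeR's quasi-likelihood test. Keratinocyte nuclei held more of it than lymphatic nuclei, with means of 119 CPM in MGNS and 429 CPM in MGHS, and its log2 fold change was above 0 in all 5 other classes, from 1.74 in fibroblast to 3.70 in mural nuclei, without passing there. It passed under 8 of 15 alternatives, with log2 fold changes from 3.98 to 4.83 and adjusted p-values from 5.46e-11 to 0.179. Leaving out any animal other than MGNS 3 ended the call, with edgeR adjusted p-values of 0.0545 to 0.140, as did limma. It was too low to be tested once doublets were removed. Whether it shares reads with the neighbouring keratin genes was not tested.

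Counts without a pass were larger. An unadjusted p under 0.05 was reached by 553 genes, or 9.58%, and the 3 animals of one group lay wholly above the 3 of the other for 918 genes, or 15.9%, of which 405 (7.02%) were higher and 513 (8.89%) lower in MGHS. DESeq2 called 39 genes, 25 higher and 14 lower, and limma called 0, with 569 genes at an unadjusted p under 0.05. The median log2 fold change of all tested genes was 0.002.

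No marker gene of another cell type passed between the groups. The summed level of 20 keratinocyte genes in lymphatic nuclei was 864, 679 and 1268 CPM in MGNS 1 to 3 and 1468, 1857 and 2165 CPM in MGHS 1 to 3, without overlap, and no member was at 0 UMIs. The summed level of 15 T or NK cell genes ran from 345 to 452 CPM in MGNS and from 145 to 353 CPM in MGHS. CD8A was at 0 UMIs, and PTPRC was at 0 UMIs by the rule. The PTPRC condition refused more nuclei in MGNS than in MGHS, and the rule also limits DSC2 of the keratinocyte list. Both sums thus depend in part on the rule. Of 2149 tested genes with a higher mean in keratinocyte than in lymphatic nuclei, 11.2% were higher and 6.28% lower in MGHS without overlap. Of the other 3621 genes, 4.56% were higher and 10.4% lower, and this division of the genes was chosen after the values were seen. The part of these transcripts in any single result was not tested.

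None of the genes named for the smallest p passed, and groups without overlap were a condition for naming them. SPSB1, an adaptor of a ubiquitin ligase, was at 220, 174 and 177 CPM in MGNS 1 to 3 and 53.3, 55.5 and 55.2 CPM in MGHS 1 to 3. Its log2 fold change was -1.75 ± 0.24 (SE) with an edgeR adjusted p of 0.0522, and it passed under 6 of 16 alternatives. ITGA1, the collagen-binding integrin subunit, was at 845, 802 and 1003 CPM in MGNS and 365, 175 and 290 CPM in MGHS, with a log2 fold change of -1.66 ± 0.27. REEP1 was at 231, 363 and 194 CPM against 98.4, 57.3 and 38.0 CPM, or -2.05 ± 0.37. All 3 genes were lower in every MGHS animal, and the means of SPSB1 and REEP1 were higher in lymphatic nuclei than in the other 5 classes.

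GPX1, the selenium-dependent glutathione peroxidase, was at 28.9, 42.1 and 48.4 CPM in MGNS 1 to 3 and 115, 156 and 262 CPM in MGHS 1 to 3. Its log2 fold change was 2.19 ± 0.36 with an edgeR adjusted p of 0.0932. SELENOW, a small selenoprotein, was at 10.8, 21.0 and 37.0 CPM against 94.3, 101 and 121 CPM, or 2.19 ± 0.39. Both were also above 0 in keratinocyte nuclei, at 2.91 and 1.84, and in blood endothelial nuclei, at 1.30 and 1.27.

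The remaining 7 genes were higher in MGHS. RAPGEF4, an exchange factor opened by cyclic AMP, was at 47.0, 39.1 and 42.7 CPM against 90.2, 151 and 128 CPM, and TIAM1, an activator of the GTPase RAC1, at 39.7, 24.0 and 25.6 CPM against 69.7, 118 and 135 CPM. FABP5, a fatty acid binding protein, was at 155, 150 and 140 CPM against 246, 422 and 468 CPM. CA1, KRT36, CKB and LYPD2 had log2 fold changes of 1.57, 2.08, 2.41 and 1.93, and keratinocyte nuclei held each of these 4 at a higher mean level than lymphatic nuclei did, at 6365, 1322, 310 and 415 CPM against 694, 219, 39.3 and 73.0 CPM. The same was so for TIAM1 and FABP5 but not for RAPGEF4, with 18.1 CPM in keratinocyte and 860 CPM in blood endothelial nuclei.

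**Figure D4:**
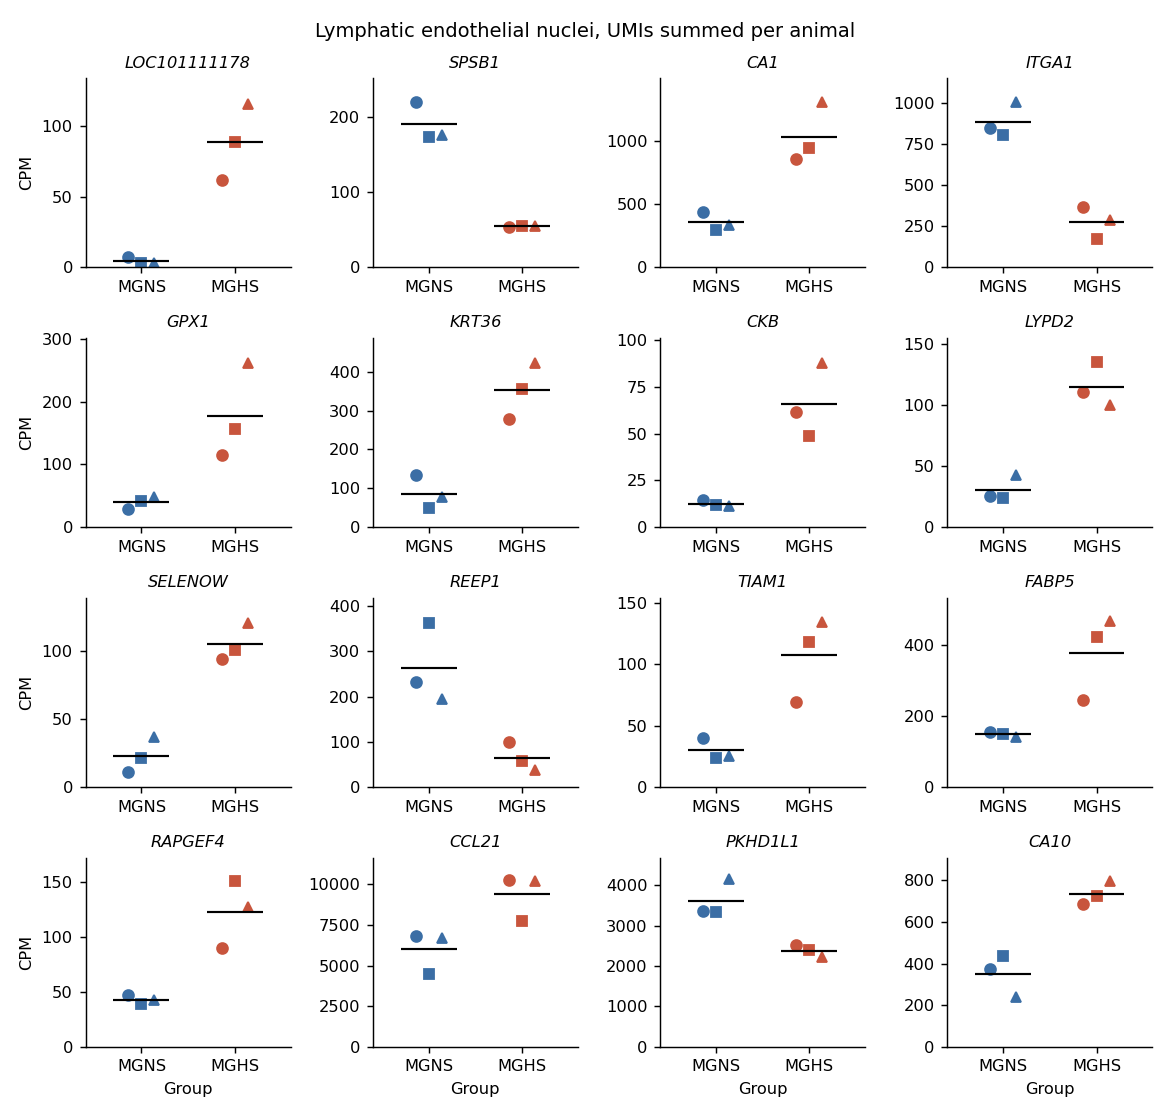
CPM in lymphatic nuclei of each animal for 16 genes (MGNS blue, MGHS red, with circle, square and triangle for replicates 1, 2 and 3, and a line at the mean of 3 animals). Groups without overlap were a condition for choosing most of these genes and are no finding, and LOC101111178 alone passed the test.

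The 25 genes highest in lymphatic nuclei were read across the groups in the same fit, where none passed, the median log2 fold change was 0.17 and 6 of 25 had groups without overlap, against 15.9% of all genes tested. CCL21 was higher in each MGHS animal, with a log2 fold change of 0.67 ± 0.23, as was CA10 at 685, 727 and 798 CPM against 376, 436 and 239 CPM in MGNS, or 1.11 ± 0.24. PKHD1L1 was lower, at 2530, 2388 and 2229 CPM against 3360, 3335 and 4155 CPM, or -0.57 ± 0.20. SCN3B, a sodium channel subunit, and LOC101103874, which lies beside the sodium channel gene SCN2A in that annotation, were lower, at -1.24 ± 0.40 and -1.62 ± 0.37. LOC114112495 was higher, at 1.15 ± 0.36.

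Lists of lymphatic function were described by counts, beside 15.9% of all genes without overlap and a median of 0.002. None of their members passed. Of 22 identity genes outside the rule, 17 were tested, 2 were higher and 3 lower without overlap, and the median was 0.049. SEMA3A was at 1098, 997 and 1071 CPM in MGNS 1 to 3 and 443, 619 and 354 CPM in MGHS 1 to 3, or -1.12 ± 0.25 on the log2 scale. PDPN was at 394, 385 and 576 CPM against 160, 222 and 271 CPM, or -1.01 ± 0.26. Both genes were lower in all 3 MGHS animals, while CCL21 went the other way.

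Of 13 genes of the VEGF-C axis only 4 were tested, with a median of 0.14 and none without overlap, and NRP2 was at 0.47 ± 0.29. The 8 tested genes of chemokines and leukocyte traffic had a median of -0.41, with 2 higher and 2 lower without overlap. ACKR2 was at 340, 348 and 328 CPM in MGNS and 168, 106 and 226 CPM in MGHS, or -0.99 ± 0.27, and SPNS2, the exporter of sphingosine 1-phosphate into lymph, at 65.0, 99.1 and 103 CPM against 176, 167 and 126 CPM, or 0.83 ± 0.27. The 12 tested valve and flow genes had a median of 0.11, with the connexin gene GJA1 higher at 0.57 ± 0.23 and SEMA3A lower without overlap. Of 7 tested genes of hyaluronan and scavenging, CEMIP2, a cell-surface hyaluronidase, was lower at -1.26 ± 0.40, and the median was -0.04.

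Wall and signalling lists were similar in size. Among all genes tested, 7.02% were higher and 8.89% lower without overlap. Of 16 tested matrix genes, 3 were higher without overlap, among them the basement membrane genes NID2 at 0.84 ± 0.26 and LAMA4 at 0.56 ± 0.21, with a list median of 0.23. Of 8 tested Notch and BMP genes, 1 was higher and 1 lower without overlap, with a median of 0.24. The Notch ligand JAG1 was higher in each MGHS animal, at 98.4, 125 and 110 CPM against 68.7, 63.1 and 25.6 CPM, or 1.15 ± 0.35. BMPR2 was the lower one, at -0.44 ± 0.22. The 6 tested angiopoietin and TIE genes were all below 0, with a median of -0.49, and none was without overlap. ANGPT2 was at -0.67 ± 0.46. The junction list of 10 tested genes had a median of 0.04, with CLDN5 at 0.47 ± 0.24.

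No member of the lists of general cell function passed. Beside their counts, 15.9% of all genes tested were without overlap, with 7.02% higher and 8.89% lower. Of the 5770 genes tested, 2898 were above 0. All 40 ribosomal protein genes were above 0, with a median of 0.39 and 14 without overlap, and in blood endothelial nuclei the same 40 had a median of 0.33. RPL15 was at 0.83 ± 0.24 in lymphatic nuclei. Of 12 tested selenoprotein genes 5 were higher and 2 lower without overlap, with a median of 0.60 against 0.20 in blood endothelial nuclei. SELENOP and SELENOH were at 1.08 ± 0.28 and 1.70 ± 0.45. Antigen presentation had the lowest median of the function lists, -0.97 over 7 tested genes, with the immunoproteasome gene PSMB10 at 97.6, 75.1 and 48.4 CPM in MGNS and 24.6, 17.4 and 20.7 CPM in MGHS, and CD40 in the other direction at 1.77 ± 0.54. No cell cycle gene had counts enough to be tested.

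Whether lymphatic and blood endothelial nuclei differed in their response was tested directly, with the animal as a block. None of 8870 genes passed in edgeR's quasi-likelihood test (0%), the smallest adjusted p was 0.781, and 467 genes, or 5.26%, had an unadjusted p under 0.05. DESeq2 also called 0, with 194 genes at an unadjusted p under 0.05. In blood endothelial nuclei alone, 7 of 9161 genes (0.0764%) passed.

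ACKR2 had the smallest p of the difference. It was lower in MGHS in lymphatic nuclei, as above, and was at 12.5, 20.5 and 10.1 CPM in MGNS and 29.5, 17.3 and 35.4 CPM in MGHS in blood endothelial nuclei, a difference of -1.95 ± 0.34 on the log2 scale. RAPGEF4 differed by 1.51 ± 0.33, with a log2 fold change of 0.01 in blood endothelial nuclei. Its log2 fold changes in keratinocyte, fibroblast and leukocyte nuclei were 2.02, 2.29 and 1.47, none of which passed. NR6A1, an orphan nuclear receptor, was at 123, 198 and 165 CPM in MGNS and 61.5, 53.8 and 81.1 CPM in MGHS in lymphatic nuclei, and differed by -1.52 ± 0.30. SPSB1 and ITGA1, near 0 in blood endothelial nuclei at -0.003 and -0.13, differed by -1.64 ± 0.60 and -1.55 ± 0.48. KRT36, CKB and LYPD2, by contrast, had nearly equal values in both classes, with differences of 0.02 ± 0.35, 0.13 ± 0.65 and -0.07 ± 0.50. CA1, which keratinocyte nuclei also held at a higher mean level, differed by -0.86 ± 0.27. Its log2 fold change was 1.57 in lymphatic and 2.42 in blood endothelial nuclei. None of these differences passed, so a distinct response of the lymphatic nuclei was not detectable with 3 animals per group.

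**Figure D5:**
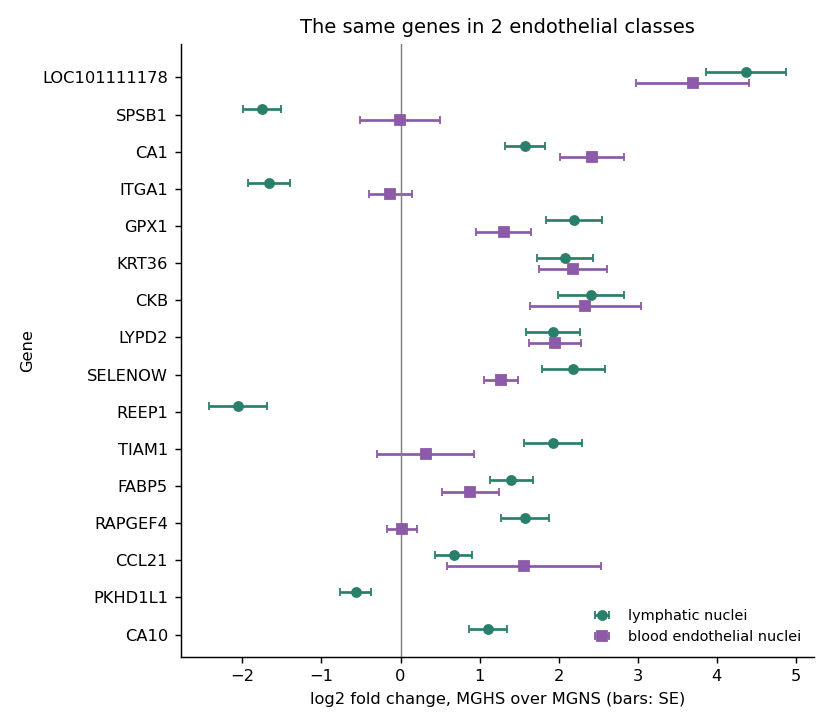
Log2 fold change of MGHS over MGNS with its SE (bars) in lymphatic nuclei (green circles) and blood endothelial nuclei (purple squares) for the 16 genes plotted by animal. REEP1, PKHD1L1 and CA10 were too low in blood endothelial nuclei to be tested. KRT36, CKB and LYPD2 sit at nearly the same value in both classes while SPSB1, ITGA1, RAPGEF4 and CA1 do not, and none of these differences passed.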

How the data were processed

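Nuclear RNA of the rumen epithelium was sequenced from 6 lambs, 1 10x Genomics library each. What was deposited is a matrix of raw UMI counts for each library, per the file headers. The headers name Cell Ranger 8.0.0 and the submitters' processing notes Cell Ranger 2.1.1, without a way to tell which applies. The sources used here name no genome build, no annotation and no rule for shared or antisense reads. All 26741 gene identifiers matched a symbol in RefSeq's annotation of assembly ARS-UI_Ramb_v3.0, which served for names and neighbours.

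Of 67553 barcodes, 40419 were kept, and 515 barcode sequences occurred in more than 1 library. Classes other than the lymphatic one (blood endothelial, keratinocyte, leukocyte, fibroblast and mural nuclei) were set by mirror rules on marker genes. Doublets were not removed in the main analysis. Removing them by Scrublet scores in scanpy 1.11.5 was an alternative, which also dropped the top 0.5% of nuclei by UMIs. Scrublet called 0.0% of nuclei in MGNS 1, MGNS 2 and MGHS 3, where a set number of top-scoring nuclei was dropped instead. Together these steps would drop 37 lymphatic nuclei.

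Sums of UMIs per animal and class were compared by edgeR 4.0.16 in R 4.3.3, with filterByExpr (minimum count 10), TMM scaling and the robust quasi-likelihood F test. Benjamini-Hochberg adjustment at 0.05 ran over all genes tested. An SE is the size of a log2 fold change over the root of its F. DESeq2 1.42.0 and limma 3.58.1 were alternatives, as were other filters, thresholds of the rule and leaving out each animal. Dropping the PTPRC condition was added after seeing the data. Shares were compared with two-sided exact permutation tests. The edgeR comparison of the groups was also run on simulated counts, and the other tests were not.

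Lymphatic nuclei and all 22 function and 9 marker lists were chosen with earlier results of these data known. Named were the 12 genes per test with symbols, without overlap of the groups (or with the same direction in 6 animals) and with the smallest p, up to 4 members per list by p, and the 25 genes with the highest class ratio at 50 CPM or more. For the test of the difference between endothelial classes, overlap was not asked for.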

Additional observations from a re-analysis of the deposited data

How the results depend on the processing

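The number of genes called between the groups, 1 as reported, was 2 with DESeq2 size factors, 39 with DESeq2, 0 with limma, 180 without a count filter (119 of them among the 5770 genes tested as reported), 2 at 4 markers, 0 in nuclei with no UMI of other classes' markers and 9 without the PTPRC condition, an alternative added after seeing the data. Leaving out 1 animal gave 0 to 58, with 58 without MGNS 3 and 0 without each of the other 5. With the replicate block the count was 0. The labels do not say whether the replicate numbers pair the animals. Same-numbered animals correlated by 0.056, -0.014 and -0.012 in their deviations, and differently numbered ones by -0.117 to 0.116. With 3 animals per group these correlations cannot decide it, and why the call was lost there was not tested. For the difference between endothelial classes the count was 68 without a count filter and 0 otherwise. For the LYVE1 comparison it was 3 with DESeq2, 42 without a filter and 0 to 4 with 1 animal left out, with 0 without MGNS 1, MGNS 3 or MGHS 2. The ratio of lymphatic to blood endothelial nuclei, -0.077 as reported, ran from -0.154 to 0.0085 with 1 animal left out and changed sign without MGNS 1, and it was -0.232 with nuclei thinned to 1000 UMIs. Over 62 named results and their alternatives, 762 of 849 values kept their direction and side of the threshold, 77 newly passed, 10 no longer passed and none changed direction. Many of these genes were named for groups without overlap, a shared direction or the smallest p, so the kept direction is no measure of robustness. Only LOC101111178 and AKAP12 passed as reported. Some list members outside the 62 did change direction, among them CCBE1, from -1.35 to 0.745, and HIF1A, from -0.978 to 0.352. Where no construction of an alternative shows the cause, the cause was not tested. Depth limits low genes, since 60 nuclei of an animal hold as few as 243872 UMIs.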

Other observations

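CLDN11, a claudin that the list of valve and flow genes holds, was too low for the filtered test and was chosen after its values were seen. It had a UMI in 0, 0 and 1 lymphatic nuclei of MGNS 1 to 3 and in 6, 6 and 13 of MGHS 1 to 3. In percent of lymphatic nuclei this was 0%, 0% and 0.847% against 10%, 4.20% and 8.90%, and the 95% Wilson intervals, which cover counting error only, reached up to 6.02% in MGNS 1 and 5.75% in MGNS 2 and ran from 1.94% to 8.85% in MGHS 2. Blood endothelial nuclei held it in 0 of 1213 and keratinocyte nuclei in 0.578%. At 1000 UMIs per nucleus the MGHS shares were 1.75%, 2.13% and 0.694% and rest on too few nuclei to read a change from. The 26 nuclei with CLDN11 held the valve factor FOXC2 in 0 cases, NFATC1 in 38.5% against 22.2% of the other 564 nuclei, and ITGA9 in 96.2% against 83.0%, at a median of 3751 against 3303 UMIs.

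STAB2, a scavenger receptor of sinusoidal endothelium, was found in 7.94% of the lymphatic nuclei of MGNS 2, the animal with the lowest share of LYVE1, and in 1 of the nuclei of the other 5 animals together. PDPN and SEMA3A, which mark lymphatic nuclei within the endothelium, were also present in fibroblast nuclei at 168 and 47.8 CPM. SEMA3D was detected in 35.2% of fibroblast nuclei, against 89.7% of lymphatic nuclei.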
